A study of Mus musculus with 4 samples.

Results

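The small ribosomal subunit assembly factors are the proteins that fold, modify and cut the precursor of 18S ribosomal RNA and deliver the 40S subunit to the cytoplasm. The family described here held 46 genes of the 18193 that had a probe set with a single gene symbol, and all 46 had at least 1 such probe set. They were measured in HL-1 cells, which derive from atrial muscle of a mouse and keep beating in culture. Cells were grown to confluence, per the labels typically at least 90% at 96 h, in supplemented Claycomb medium on coverslips coated with gelatin and fibronectin. In the 2 stimulated samples an electrical stimulator then drove them at 300 beats per minute over 24 h, about 1.5 to 2 times the control rate, and the 2 control samples beat spontaneously without pacing. Each sample gave 1 Affymetrix array of total RNA. No control was paced at the spontaneous rate, so the faster rate and the current itself cannot be told apart. The labels number the stimulated samples as experiments 1 and 2, while the numbers of the controls were assigned here. The labels do not say whether the controls came from separate cultures. The errors below therefore rest on the spread between these arrays, which may be partly technical.

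The members were chosen by function, but with the stimulated-minus-control differences of these same arrays already known. Their differences are therefore a description of the family, with no test of it. A gene is said to have risen or fallen where its difference passed an adjusted p of 0.05 in limma over all 13058 genes tested. That fit took the brightest probe set of each gene and kept genes with a mean of at least 4.39 on the log2 scale, the 40th percentile of all probe sets. All 46 members were above this level. Levels are log2 values as deposited, and a level of 1 probe set is not compared with that of another, since probe sets differ in how brightly they bind. Each difference is the stimulated mean less the control mean in log2 units, given with its standard error from limma (n = 2 arrays per group). That fit draws the variance of each gene towards a value taken from all genes tested. An error is thus not the spread of that gene's own arrays alone.

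Ribosome assembly starts in the nucleolus, where RNA polymerase I makes a long precursor RNA. On its 5′ part the small subunit processome assembles around the U3 small nucleolar RNA. Its building blocks join in order: the UTP-A complex binds first, followed by the UTP-B complex and the U3 particle, and by the MPP10 complex and many single proteins. Helicases and GTPases then take the particle apart, and a smaller set of factors escorts the pre-40S particle out of the nucleus and through its last RNA cut. The demand for these proteins follows the demand for new ribosomes, and heart muscle that grows in response to load is known for making more of them.

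Most of the family stood higher in paced cells. Of the 46 members, 18 rose and 0 fell, where 3.91% of all genes tested rose and 1.62% fell. Their adjusted p in limma ran from 0.011 for Rrp12 to 0.0486 for Wdr46, and Utp20 lay just outside at 0.0517. The median difference of the 46 was 0.58, against -0.01 for all genes tested, and the middle of the family ran from 0.33 to 0.79 between its quartiles, against -0.19 to 0.20 for all genes. By sign alone 41 members were higher and 5 were lower, namely Imp3, Ltv1, Utp23, Nol6 and Emg1. Both stimulated arrays lay above both control arrays in 39 members, where this held for 27.6% of all genes tested. Both lay below in 2 members, Imp3 and Ltv1, where this held for 27.7% of all genes. At least 2-fold rises were seen in 7 members, Rrp12, Utp4, Tsr1, Nop14, Rcl1, Wdr75 and Nop58. Of all genes tested, 2.23% were higher by at least this much. Of the 46, 29 were among the 10% of genes with the largest differences upward.

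Most calls of single members needed all 4 arrays. Without control 1, without control 2 and without stimulated 1, 0 members passed in limma. Without stimulated 2 only Rrp12 and Utp4 did. With all 4 arrays, 35 members were higher at an unadjusted p under 0.05 in limma, where this held for 13.9% of all genes tested. Over all genes the calls fell as well, from 722 to 40, 20, 70 and 113. The median difference of the family was 0.47 without stimulated 1 and 0.56 to 0.63 without each of the other arrays in turn, and 40 to 43 members were higher. With each array centred on its median, rises made up 55.3% of all calls in place of 70.6%, 15 members rose, and the family's median was 0.51.

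**Figure D1:**
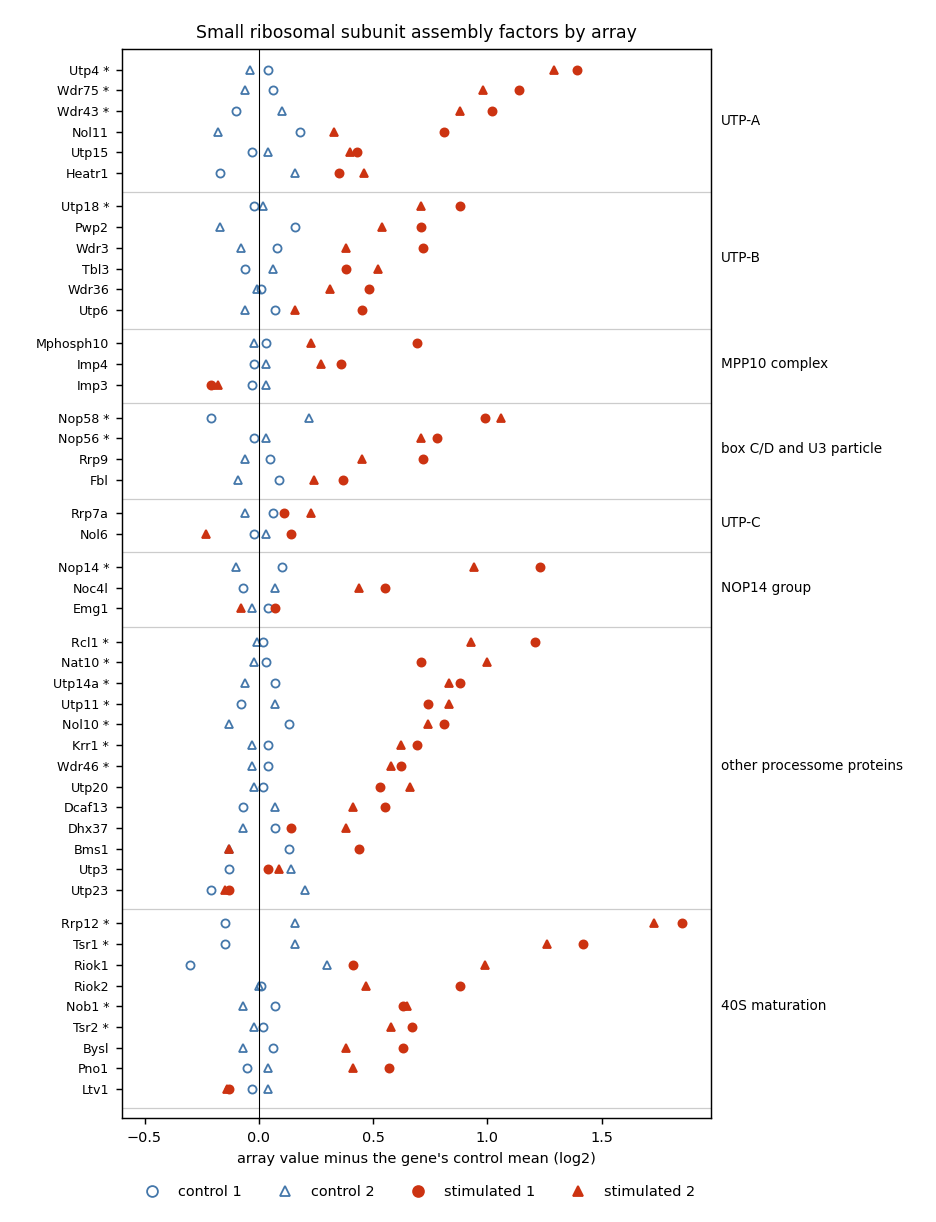
Values of the 46 members on each array, as log2 difference from the gene's own control mean (horizontal axis), grouped by role. Open blue symbols are control arrays and filled red symbols stimulated arrays, circles for number 1 and triangles for number 2; an asterisk marks the 18 genes that rose. In 39 rows both red symbols lie to the right of both blue ones, and in Imp3 and Ltv1 both lie to the left.

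The cells carried transcripts of heart muscle: all 10 markers listed for atrial muscle, Nppa, Myh6, Myl7 and Tnnt2 among them, were above the filter level. No ventricular markers were listed, so these 10 do not set atrial apart from ventricular muscle. Of these 10, Nppa rose by 2.00 ± 0.14 and Gata4 fell by 0.74 ± 0.13. In stimulated cells 9 were lower by sign, among them Sln (-1.78 ± 0.52) and Myh6 (-1.03 ± 0.30), which did not pass. Other probe sets above the filter level differed by -2.89 for Myh6, -1.21 for Gata4, -0.33 for Myl4 and -1.24 to -0.16 for Tnnt2. Of the markers of fibroblasts, 4 of 8 were below that level, of endothelium 5 of 6, of leukocytes 2 of 6 and of smooth muscle 1 of 4. The brightest fibroblast marker, Col1a1, read 5.51 and 7.55 in controls and 5.49 and 7.14 in stimulated cells. Cd68, a leukocyte marker and lysosomal protein gene, rose from 4.39 to 6.46, while Ptprc, which defines leukocytes, read 3.28 in controls and 3.21 in stimulated cells. Of the other leukocyte markers, Csf1r went from 6.49 to 7.38 without passing. Lyz2 went from 5.20 to 5.13, Adgre1 from 4.64 to 4.32 and Cd14 from 3.93 to 3.94. Of the smooth muscle list Acta2 read 13.69, Tagln 11.79 and Cnn1 10.59 in controls, while Myh11, its defining gene, read 4.13. Tagln differed by 0.90 ± 0.25, Cnn1 by 0.30 ± 0.30 and Acta2 by -0.06 ± 0.13, without passing. The part of these marker differences, or of any other cell type, in the members' differences was not tested, and a change in the make-up of a culture cannot be told apart from a change in RNA per cell. Pearson's r over genes, which are not independent replicates, was 0.992 between the controls, 0.989 between the stimulated pair and 0.968 to 0.975 for arrays from opposite groups.

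Sequence in front of these genes was examined because they moved together and because MYC, a driver of ribosome production, binds the E-box CACGTG with its partner MAX. In the table of RefSeq promoters of the mouse build GRCm38.p6, 37 members matched by symbol, each with 250 bases before and 50 after the gene's start. An E-box stood in 12 of the 37 promoters, or 32.4%, against 9.48% of the promoters of all genes tested and 7.15% of all promoters. Of these 12 matches, 10 began within 50 bases of the start, and 7 began after it. Positions were not worked out for the promoters of other genes, so this nearness is not shown to be particular to the members. Among the members with a promoter an E-box stood in 6 of the 16 that rose and in 6 of the 21 that did not pass. The 6 that rose are shown from 60 bases before to 30 after the start, read 5′ to 3′ along the gene, with the E-box in capitals.
Utp4, chr8:106893580-106893669, plus strand: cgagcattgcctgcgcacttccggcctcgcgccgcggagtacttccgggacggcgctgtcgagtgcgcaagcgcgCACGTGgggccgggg
Tsr1, chr11:74898020-74898109, plus strand: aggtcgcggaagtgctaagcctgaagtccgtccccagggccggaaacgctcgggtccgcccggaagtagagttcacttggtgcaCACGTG
Wdr43, chr17:71616155-71616244, plus strand: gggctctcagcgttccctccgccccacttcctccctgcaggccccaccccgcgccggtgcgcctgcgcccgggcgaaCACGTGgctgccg
Utp18, chr11:93885737-93885826, minus strand: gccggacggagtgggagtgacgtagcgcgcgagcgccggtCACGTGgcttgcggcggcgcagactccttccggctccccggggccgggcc
Tsr2, chrX:151096514-151096603, minus strand: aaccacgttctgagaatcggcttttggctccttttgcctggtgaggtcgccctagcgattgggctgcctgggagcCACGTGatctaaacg
Wdr46, chr17:33940663-33940752, plus strand: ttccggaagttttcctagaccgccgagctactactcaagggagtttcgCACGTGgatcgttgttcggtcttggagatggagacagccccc

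The E-box begins 16 bases after the start in Utp4 and Tsr2, 18 in Wdr43 and 25 in Tsr1, and 20 bases before it in Utp18 and 12 in Wdr46. The other members with a match were Rrp7a, Imp4, Nol11, Ltv1, Utp20 and Pno1. The median difference was 0.59 in the 12 members with an E-box and 0.63 in the 25 without, a description with no test. Of the other motifs searched on both strands, the ETS motif CCGGAAG stood in 14 of 37 promoters, or 37.8%, against 16% for all genes tested and 8.86% of all promoters. The NRF1 core GCGCATGC stood in 3 (8.11%, against 4.79% and 2.71%) and the cyclic AMP response element TGACGTCA in 1 (2.7%, against 2.86% and 1.79%). The composite element of CHOP and ATF4, TTGCATCA, stood in 0, against 0.602% and 0.895%. None of these motifs contains another. The median G and C content was 58.3% in the members' promoters and 60.3% in those of the genes tested, against 52.7% in all promoters.

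**Figure D2:**
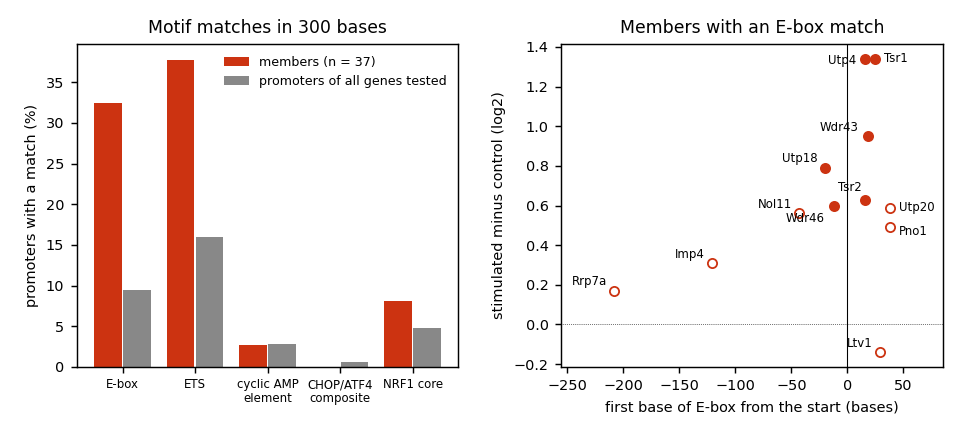
Left, share of promoters with a match to each motif on either strand, for the 37 members with a promoter (red) and for all genes tested (grey); the E-box stood in 32.4% and 9.48%. Right, for the 12 members with an E-box, the position of its first base from the gene's start (bases, horizontal axis) against the stimulated-minus-control difference (log2). Points are filled where the gene rose. Of the 12, 10 lie within 50 bases of the start, and positions in other genes were not worked out.

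UTP-A, the complex that binds the nascent precursor RNA first and is also needed for its transcription, was higher throughout. Of its 6 members, 3 rose, all 6 had stimulated arrays above the controls, and the median difference was 0.76. Utp4 read 9.23 and 9.15 on the control arrays and 10.58 and 10.48 on the stimulated arrays, a rise of 1.34 ± 0.12 or 2.53-fold. Wdr75 read 8.42 and 8.30 in controls and 9.50 and 9.34 in stimulated cells, a rise of 1.06 ± 0.13. Wdr43 went from 8.84 and 9.04 to 9.96 and 9.82, a rise of 0.95 ± 0.14, and its other probe set differed by 0.96. In all of these the gap between groups was several times the gap between arrays of a group. Wdr75 rested on its brightest probe set alone, since its other probe set past the filter, at a mean of 4.6, differed by 0.03.

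The other UTP-A members were higher by less. Nol11 differed by 0.56 ± 0.21, with stimulated arrays at 10.13 and 9.65, and its 3 other probe sets differed by 0.12 to 0.32. Utp15 differed by 0.41 ± 0.12 and by 0.90 on its other probe set. Heatr1, a large repeat protein of this complex, had the smallest difference, from 8.54 and 8.87 in controls to 9.06 and 9.17, or 0.41 ± 0.16. Its other probe sets differed by -0.32 and 0.07, so the direction of Heatr1 depends on the probe set.

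UTP-B, a complex built mainly of WD-repeat proteins that joins the 5′ end of the precursor and U3, was higher throughout as well. All 6 members had stimulated arrays above controls, the median difference was 0.50, and only Utp18 rose. Utp18 read 8.90 and 8.94 in controls and 9.80 and 9.63 in stimulated cells, a rise of 0.79 ± 0.13. Pwp2, Wdr3, Tbl3 and Wdr36 differed by 0.63, 0.55, 0.45 and 0.40 without passing. Utp6 had the smallest difference, from 8.54 and 8.41 to 8.92 and 8.63, or 0.30 ± 0.15, with 0.22 and -0.24 on its other probe sets. Utp6 is thus the member of UTP-B whose probe sets past the filter disagreed in sign.

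The U3 particle belongs to the box C/D class, in which fibrillarin (Fbl) carries the methyl transferase activity, Nop56 and Nop58 hold it on the guide RNA, and Rrp9 is bound to U3. Nop58 rose from 9.73 and 10.16 to 10.93 and 11.00, by 1.03 ± 0.17. Nop56 rose from 10.01 and 10.06 to 10.81 and 10.74, by 0.74 ± 0.12, and its other probe set differed by 0.48. Rrp9 differed by 0.59 ± 0.14 without passing. Fbl had the smallest difference of these 4, from 11.24 and 11.06 to 11.52 and 11.39, or 0.31 ± 0.13, with 0.34 on its other probe set. Of these 4, Nop56 and Nop58 thus rose, while Rrp9 and Fbl were higher on both stimulated arrays but did not pass.

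In the MPP10 complex, which steadies the pairing of U3 with the precursor, 0 of 3 members passed in limma, 2 of them at an unadjusted p under 0.05. Mphosph10 differed by 0.46 ± 0.18, from 9.17 and 9.12 to 9.83 and 9.37, so that most of its difference came from stimulated 1. Imp4 differed by 0.31 ± 0.12. Imp3, which binds U3 as well, had the lowest difference of all members. It read 9.51 and 9.57 in controls and 9.33 and 9.36 in stimulated cells, a difference of -0.20 ± 0.12 that did not pass.

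Both members of the UTP-C complex were close to their control level, and 0 passed in limma, also at an unadjusted p under 0.05. Rrp7a differed by 0.17 ± 0.13, from 7.86 and 7.74 to 7.91 and 8.03. Nol6 differed by -0.05 ± 0.16, and its stimulated arrays, at 7.58 and 7.21, lay on either side of the controls at 7.42 and 7.47. In the NOP14 group, proteins that bind each other on the particle, the difference ran from large to none. Nop14 rose from 8.0 and 7.80 to 9.13 and 8.84, by 1.09 ± 0.16 or 2.12-fold. Noc4l differed by 0.49 ± 0.13 on the probe set used and by 0.58 to 0.74 on its other 3. Emg1, a methyl transferase that modifies the 18S sequence, read 11.16 and 11.09 in controls and 11.19 and 11.04 in stimulated cells, a difference of -0.01 ± 0.13.

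Among the 13 other processome proteins 7 rose, 12 were higher by sign, and the median difference was 0.60. Rcl1, a cyclase-like protein that works with the GTPase Bms1, rose from 8.07 and 8.04 to 9.26 and 8.98, by 1.07 ± 0.14 or 2.10-fold. Bms1 itself read 11.22 and 10.96 in controls and 11.53 and 10.96 in stimulated cells, a difference of 0.16 ± 0.22 with overlapping groups. Its other probe set differed by 0.17. Of these partners, only Rcl1 rose.

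Utp14a, which activates the helicase Dhx37, rose from 8.53 and 8.40 to 9.34 and 9.29, by 0.85 ± 0.13. Dhx37, which unwinds U3 from the precursor, differed by 0.26 ± 0.14 at a low level, from 5.37 and 5.23 to 5.44 and 5.68. Nat10, which acetylates cytidines of 18S RNA, rose from 6.82 and 6.77 to 7.5 and 7.79, by 0.85 ± 0.14. The other probe sets of Utp14a and Nat10 past the filter were dim, at means of 5.10 and 5.21, and differed by -0.09 and -0.17.

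Utp11 rose from 9.11 and 9.26 to 9.93 and 10.02, by 0.79 ± 0.13. Its other probe sets differed by 1.02 and, at a mean of 4.57, by -0.20. Nol10 rose by 0.78 ± 0.14, from 4.69 and 4.43 to 5.37 and 5.30, near the filter level. Krr1, a protein with an RNA-binding KH domain, rose from 8.93 and 8.86 to 9.58 and 9.51, by 0.65 ± 0.12, and its 3 other probe sets differed by 0.36 to 0.55. Wdr46 rose from 9.06 and 8.99 to 9.64 and 9.60, by 0.60 ± 0.12. In these genes, as in Utp14a and Nat10, both stimulated arrays lay above both control arrays.

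Utp20, a very large repeat protein, read 7.33 and 7.29 in controls and 7.84 and 7.97 in stimulated cells, a difference of 0.59 ± 0.12. Dcaf13 differed by 0.48 ± 0.13. Utp3 had the smallest difference in this group, 0.06 ± 0.14, with controls at 9.51 and 9.78 and stimulated arrays at 9.68 and 9.73 between them. Utp23, which helps remove a small nucleolar RNA from the precursor, differed by -0.14 ± 0.17, and by -0.26 to 0.15 on its other probe sets. Utp3 and Utp23 were the members of this group, with Bms1, whose groups overlapped.

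The factors of late 40S maturation held the largest difference of the family. Of 9 members, 4 rose, 8 were higher on both stimulated arrays than on both controls, and the median difference was 0.64. Rrp12, a repeat protein needed for export of both subunits, rose from 5.90 and 6.21 to 7.90 and 7.78, by 1.79 ± 0.15 or 3.45-fold, and ranked 72 among all genes tested by its rise. Tsr1, a GTPase-like protein of the pre-40S particle, rose from 8.71 and 9.02 to 10.28 and 10.12, by 1.34 ± 0.16 or 2.53-fold. Its other probe set differed by 1.10, so both probe sets of Tsr1 showed a difference above 1 on this scale.

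Nob1, the nuclease that makes the last cut at the 3′ end of 18S RNA, rose from 8.51 and 8.37 to 9.07 and 9.09, by 0.64 ± 0.12. Tsr2, which delivers a ribosomal protein to the particle, rose from 8.21 and 8.17 to 8.86 and 8.77, by 0.63 ± 0.12, with 0.46 on its other probe set. Pno1, a neighbour of Nob1 on the particle, differed by 0.49 ± 0.13, and Bysl by 0.51 ± 0.14. These differences of Pno1 and Bysl did not pass.

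The kinases of this step were higher on both stimulated arrays, but their brightest probe sets, which stand for the genes, did not pass. With every probe set tested on its own in limma, another probe set of each passed, at 0.95 for Riok1 and 1.02 for Riok2. Riok1 differed by 0.70 ± 0.27, from 6.72 and 7.32 to 7.43 and 8.01, the widest spread in the family, and its other 4 probe sets past the filter differed by 0.07 to 0.95. Riok2 differed by 0.68 ± 0.17, from 8.54 and 8.53 to 9.41 and 9.0, with 0.43 and 1.02 on its other probe sets. Ltv1, an export adaptor of the pre-40S particle, was the exception here, with 10.34 and 10.41 in controls and 10.24 and 10.23 in stimulated cells, a difference of -0.14 ± 0.12.

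The stimulated arrays did not carry the shift equally. The median of the members above their control mean was 0.63 on stimulated 1 and 0.47 on stimulated 2, against 0.02 and -0.02 for all genes tested. Stimulated 1 was the higher of the pair in 34 of 46 members, or 73.9%, and in 53.7% of all genes tested. Between the control arrays 26 of 46 members were higher on control 1. The gap between the stimulated arrays was widest in Riok1, where stimulated 2 was higher by 0.58, and in Bms1, where stimulated 1 was higher by 0.57. The median gap without regard to sign was 0.14 between the stimulated arrays and 0.12 between the controls in the members, and 0.17 and 0.14 in all genes tested.

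**Figure D3:**
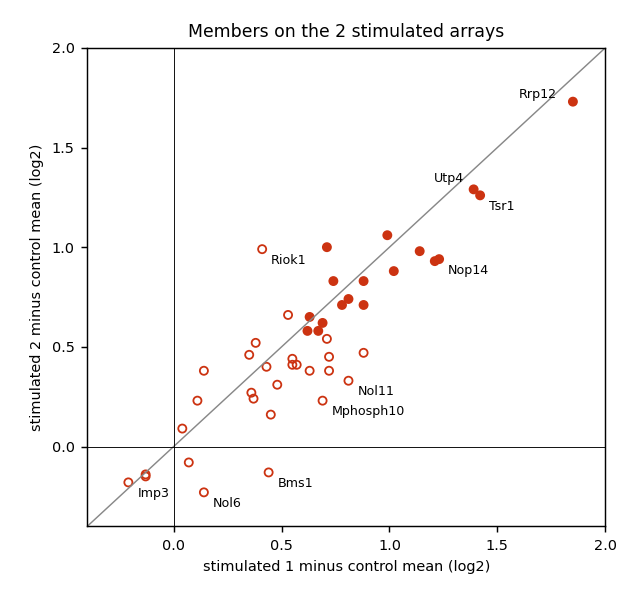
Each point is 1 of the 46 members, with its difference from the control mean on stimulated 1 (horizontal axis, log2) against that on stimulated 2 (vertical axis, log2); filled points are the 18 genes that rose, and the grey line marks equal values. In 34 members the point lies below the line, and Rrp12, Utp4 and Tsr1 stand apart at the upper right.

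Several probe sets on the array read the same gene, although on the same RNA, so they are not further replicates. The 46 members had 93 probe sets, of which 89 passed the filter; 76 of these were higher and 13 lower by sign. Tested each on its own in limma, with adjustment over all probe sets past the filter, 22 of the 89 passed, all of them higher. Wdr43, Noc4l, Utp11 and Tsr1 each had 2 or more among the 22. The probe sets used for Wdr46, Nob1 and Tsr2 did not pass there, while other probe sets of Noc4l, Riok1 and Riok2 did. The share of all probe sets that passed was not worked out, so the 22 have no background count beside them. Of the 26 members with 2 or more probe sets past the filter, 19 had a single direction. Those with both signs were Utp11, Utp14a, Nat10, Heatr1, Utp6, Rrp7a and Utp23. In 8 of the 26 the probe sets spread by more than 0.5. Of the probe sets used, 12 carried a suffix that marks probes shared between transcripts of a gene or between similar sequences; 6 of these 12 and 12 of the other 34 rose, with medians of 0.62 and 0.56.

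**Figure D4:**
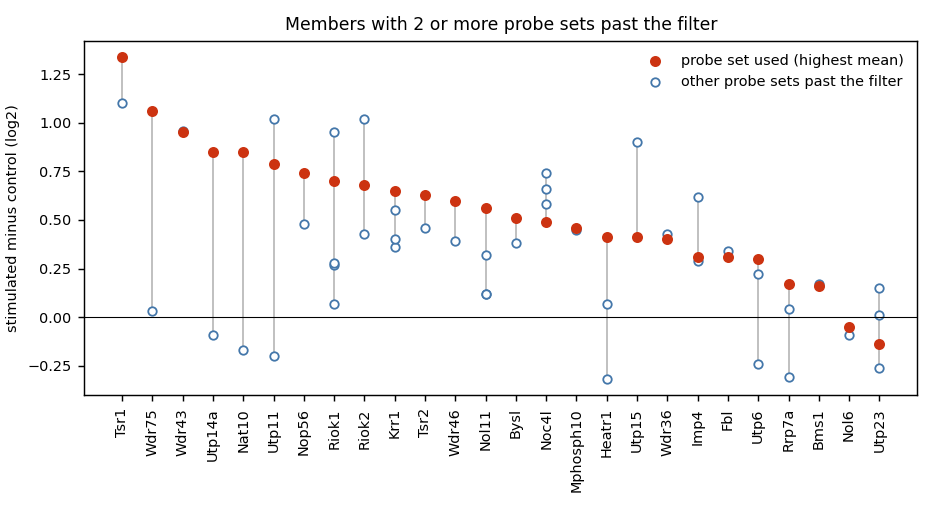
Stimulated-minus-control difference (vertical axis, log2) of every probe set past the filter, for the 26 members with 2 or more of them (horizontal axis). Filled red points are the brightest probe set, which stands for the gene, and open blue points are the others; 19 genes keep a single sign, and Utp11, Utp14a and Nat10 have 1 dim probe set slightly below 0.

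Other genes of ribosome production were listed by role, again with earlier results of these data known, and are described by counts alone. Of 31 further small subunit and nucleolar factors tested, 4 rose and 0 fell, with a median difference of 0.33. They were Znhit6 (1.06 ± 0.15) and Nufip1 (0.83 ± 0.17), which help build box C/D particles, the nucleolar protein gene Lyar (0.93 ± 0.13) and Aatf (0.78 ± 0.14), a partner of Ngdn in the processome. Utp25 differed by 0.68 ± 0.19 and Dimt1, which methylates 18S RNA, by 0.66 ± 0.21, without passing. Their other probe sets past the filter differed by 0.10 and 0.30. Of 43 large subunit assembly factors 23 rose and 0 fell, with a median of 0.70. The largest were the GTPase gene Gtpbp4 (1.68 ± 0.19), Rrp15 (1.34 ± 0.19) and Tma16 (1.32 ± 0.14, but 0.30 on its other probe set). The 46 small subunit factors had a share of rises of 39.1%, beside 53.5% for the large subunit factors and 12.9% for the further small subunit list. No test compares these lists.

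Of 6 proteins of the box H/ACA particles, which guide pseudouridine formation, Naf1 (0.79 ± 0.13), Gar1 (0.71 ± 0.13) and Shq1 (0.64 ± 0.12) rose and 0 fell, with a median of 0.51. Of 15 genes of RNA polymerase I and its factors 3 rose and 0 fell, with a median of 0.26. They were Taf1a, a subunit of the promoter selectivity factor, from 6.19 and 6.14 to 7.91 and 8.24 (1.90 ± 0.15), Polr2h (0.85 ± 0.15) and Taf1c (0.62 ± 0.12). The ribosomal proteins that the assembly factors place differed little. Of 32 small subunit ribosomal protein genes listed, 22 had a probe set with a single symbol and 21 were tested. Of these 21, 0 rose and 0 fell in limma, also 0 and 0 at an unadjusted p under 0.05. Their median was 0.10. By sign 20 of the 21 were higher. Rps18 differed by 0.31 ± 0.13, Rps3 by 0.26 ± 0.12 and Rps25 by 0.22 ± 0.22.

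**Figure D5:**
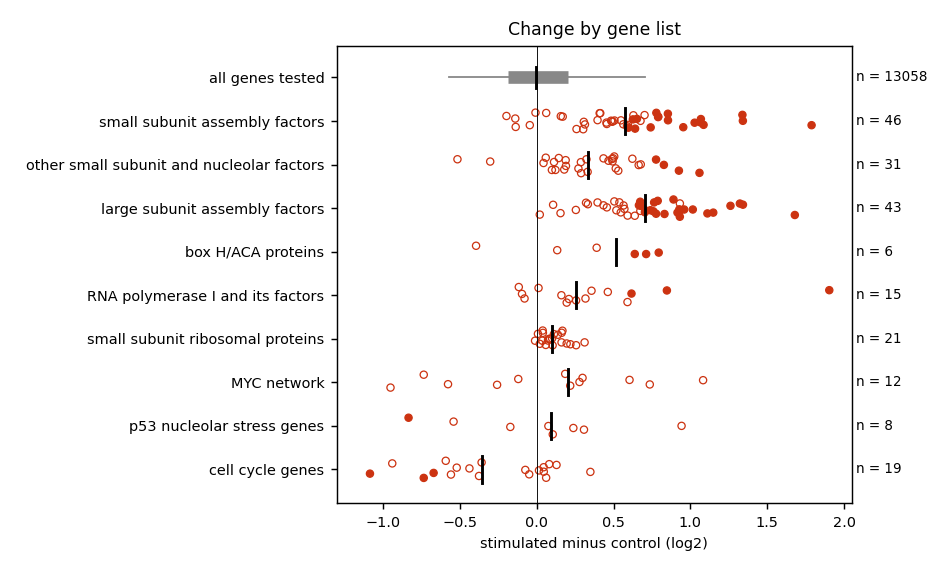
Stimulated-minus-control difference (horizontal axis, log2) of every gene tested in each list; filled points passed an adjusted p of 0.05 and black bars are medians. For all 13058 genes the thick grey bar spans the quartiles and the thin line the 5th to 95th percentile; the small and large subunit assembly factors have medians of 0.58 and 0.70, the small subunit ribosomal proteins 0.10 and the cell cycle genes -0.36.

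Genes that bear on growth control were listed as well. In the MYC network 0 of 12 genes rose and 0 fell in limma. Myc read 5.40 and 5.94 in controls and 7.12 and 6.38 in stimulated cells, a difference of 1.08 ± 0.29 that did not pass. Its groups did not overlap, but its stimulated arrays were further apart than its controls. Mxd4, a repressor of E-box genes, differed by -0.95 ± 0.20 and Mlxipl by 0.74 ± 0.16, Max by 0.28 ± 0.31 and Mycn by -0.12 ± 0.12. At an unadjusted p under 0.05 in limma, 3 of the 12 were higher and 2 lower, beside 1810 and 1528 of all 13058 genes tested. The part of Myc in the members' differences was not tested.

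A list for p53 and nucleolar stress mixed regulators of p53, such as Cdkn2a, with its targets, such as Cdkn1a. Of its 8 genes tested, Cdkn2a fell by 0.83 ± 0.15 and 0 rose, while Cdkn1a differed by 0.94 ± 0.46 and Ccng1 by -0.54 ± 0.22. Cell cycle genes were listed because cell division also draws on ribosomes. Of 19 tested 3 fell, Plk1 (-1.09 ± 0.16), Ccna2 (-0.74 ± 0.12) and Ccnb2 (-0.67 ± 0.13), and 0 rose. Ccnb2 was named after its value was seen. Aurka differed by -0.94 ± 0.22 without passing. The median of the cell cycle list was -0.36, beside 0.58 for the assembly factors on the same arrays.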

How the data were processed

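The deposited table holds log2 values of 45101 probe sets on 4 arrays, made by the authors with RMA, per the submitters' processing notes. The RMA version and its settings are not given in the sources used here. RMA scales arrays to a common distribution, so a shift of all transcripts cannot be seen. Of the probe sets, 34945 had exactly 1 gene symbol, in 18193 genes. Each gene was represented by the probe set that was brightest on average across the 4 arrays, and genes under the 40th percentile of all probe sets were left out. Stimulated and control arrays were compared for 13058 genes with limma 3.58.1 (lmFit and eBayes) in R 4.3.3. P-values were adjusted by Benjamini-Hochberg over all of them at a threshold of 0.05. The script was tested on simulated data with changes of 2 and 4 log2 units, larger than any difference of the members. That run does not show how well differences of the members' size are called. An exact permutation test of 2 arrays against 2 cannot go below p = 0.333 (two-sided), so none was used for single values.

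The members and gene lists were chosen with earlier results of these data known. Every member may be named. Values of every array are given for members that passed and for the largest and smallest difference of each role group. The 6 largest differences are named for the further small subunit factors and the 3 largest for each other list, with Myc, Mycn and Max added. Alternatives were the mean of a gene's probe sets, every probe set alone, no filter, a 60th percentile filter, centred arrays and an intensity trend. The main fit was also run without each array in turn. A fit with the sample number as a block was added later. Motifs were searched on both strands of RefSeq promoters of GRCm38.p6, which were matched by symbol.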

Additional observations from a re-analysis of the deposited data

How the results depend on the processing

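With the mean of a gene's probe sets, the members' median was 0.49 and 15 rose, 11 of them shared with the 18. Of the 18 members, 9 passed in each of the 5 other gene-level fits with all 4 arrays and no replicate block, 8 did not pass in at least 1, and Nol10 was not tested under the 60th percentile filter. No member changed sign past the threshold. The same setting gave 15 rises and a median of 0.55 for the large subunit factors, and medians of 0.13 for ribosomal proteins, 0.02 for the p53 list and -0.27 for the cell cycle list. In the MYC network it gave 1 rise, 2 falls and a median of 0.03. Without the filter the median of ribosomal proteins was 0.09, and with the 60th percentile filter 1 gene of the MYC network rose and 1 fell. Centred arrays gave medians of 0.27 for the further small subunit factors, 0.64 for large subunit factors, 0.45 for box H/ACA proteins, 0.19 for polymerase I, 0.04 for ribosomal proteins and 0.14 for the MYC network, with 2 falls in the latter and 5 in the cell cycle list. With the intensity trend 1 further small subunit factor fell. The cause of these shifts was not tested.

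Leaving out 1 array left 0 to 2 members past the threshold and medians of 0.47 to 0.63. It left 0 rises of the further small subunit factors (medians 0.31 to 0.41), 0 to 2 of the large subunit factors (0.69 to 0.75), 0 of box H/ACA proteins (0.46 to 0.56) and 0 to 1 of polymerase I (0.21 to 0.29). The median of ribosomal proteins was 0.09 to 0.11 and of the MYC network -0.01 to 0.27. In the p53 and cell cycle lists 0 falls were left, and the cell cycle median was -0.42 to -0.17. A group with a single array was assumed to vary like the other group. On the given strand alone the ETS motif stood in 27% and the NRF1 core in 5.41% of members' promoters. The labels number both stimulated samples, and the protocol text of 1 control speaks of sample 2. The control titles carry no number, and the controls were numbered here by the order of their sample records. No label says that a number marks a shared culture or day. A fit with the sample number as a replicate block was added after the values were seen. Over genes, arrays given the same number in this way deviated from their group means with r = 0.33. The block left 1 residual degree of freedom and called 1345 genes in place of 722. It called 24 members, the 18 and Nol11, Pwp2, Rrp9, Utp20, Riok1 and Riok2. It also called 2 rises and 1 fall in the MYC network and 1 rise in the p53 list. With 2 arrays per group their number limits the precision, and dim probe sets near the filter level say little about a difference.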

Other observations

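Genes that carry small nucleolar RNAs in their introns were higher as well. These host genes make spliced RNAs whose introns release the guide RNAs used by the box C/D and box H/ACA particles. The list was added with the members' values already known, before the values of its own genes were looked at. Of 9 host genes tested 5 rose and 0 fell in limma, all 9 were higher by sign, and the median difference was 1.04. Snhg12 rose from 8.11 and 8.21 to 9.90 and 9.34, by 1.45 ± 0.20. Snhg7 rose by 1.24 ± 0.19, Snhg3 by 1.10 ± 0.14, Gas5 by 1.07 ± 0.21 and Snhg6 by 0.90 ± 0.15. Snhg5, Snhg8 and Snhg1 differed by 1.04, 0.58 and 0.51 without passing, and Snhg4 by 0.06 with overlapping groups. The other probe set of Snhg5 past the filter differed by 0.08. Without control 1, without control 2 and without stimulated 1, 0 passed, and without stimulated 2 there were 2; the medians were 0.76 to 1.19. With the mean of a gene's probe sets, and with the intensity trend, 7 passed, with medians of 0.90 and 1.04.

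The RNA exosome, which trims and removes the cut-off pieces of the precursor, differed little. Of 13 of its genes and cofactors tested 0 rose and 0 fell in limma. At an unadjusted p under 0.05, 2 were higher and 0 lower, where 13.9% of all genes tested were higher. The median was 0.10, and the nuclease gene Dis3 had the largest difference, 0.52. Of the paralogs of members, Utp14b differed by 0.53 ± 0.18, Riok3 by 0.27 ± 0.15 and Fbll1 by -0.16 ± 0.17. Other probe sets past the filter differed by -0.40 to 0.65 for Riok3 and by -0.28 for Fbll1. None of the 3 paralogs passed in limma, and 1 was higher at an unadjusted p under 0.05.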
